A study of Mus musculus with 4 samples.

Results

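Heparan sulfate sulfotransferases were examined as 10 genes of the 32285 in the count tables. They were *Ndst1*, *Ndst2*, *Ndst3*, *Ndst4*, *Hs3st1*, *Hs3st2*, *Hs3st4*, *Hs3st5*, *Hs6st2* and *Hs6st3*, found by their gene symbols, and all 10 were present in every table. The genes were chosen by their levels in these cell classes and by the *Ndst4* treatment difference, with levels and treatment results of these libraries already known. Their levels across cell classes are therefore given as description with no test. *Ndst4* was a row of the fits over all genes, but its treatment difference is given as description only. The libraries are single-nucleus RNA-seq of frozen brain sections from female 5XFAD mice, a transgenic model driven by the neuronal Thy1 promoter that forms amyloid plaques. All mice were 5XFAD, were aged 7 to 10 weeks and received engineered extracellular vesicles (EVs) intravenously, at the same dose in both groups. The EVs held either low or high phosphatidylethanolamine (PE-low EV and PE-high EV), an abundant membrane phospholipid. Each group had 2 libraries, and each library pooled 2 mice, so values of single animals cannot be seen. The study's methods give collection after hours or weeks for EV injections in general, and which holds for these libraries was not given in the sources used here, and no vehicle or wild-type library was analysed here.

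Heparan sulfate is a long sugar chain carried by core proteins such as syndecans and glypicans at the cell surface and in the matrix. After the chain is built, N-deacetylase/N-sulfotransferases (the NDST enzymes) replace acetyl groups on glucosamine with sulfate, which opens the chain to later steps. The 2-O-, 6-O- and 3-O-sulfotransferases (HS2ST, HS6ST and HS3ST enzymes) then add sulfate at other positions, 3-O-sulfation being the rarest. The resulting patterns set which growth factors, guidance cues and adhesion proteins a chain binds, and several family members are expressed mainly in the nervous system.

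The tables held 29472021 to 43272337 UMIs per library. After nuclei were called, and limited to 200 to 2500 genes and at most 3% mitochondrial UMIs, 1457 to 3457 nuclei per library were kept, 10688 in all, with medians of 1712 to 2885 UMIs. Clusters were made without the 10 genes and named from marker genes. The classes were excitatory neuron-like (4449 nuclei), striatal projection neuron-like (2448), inhibitory neuron-like (1601), oligodendrocyte-like (374), astrocyte-like (353), oligodendrocyte precursor-like (198), subcortical glutamatergic neuron-like (94) and microglia-like (73), with 1098 nuclei unnamed. All markers of astrocytes (6), oligodendrocytes (6) and precursors (5) were highest in their own class, as were 7 of 8 striatal, 6 of 8 microglial, 5 of 8 excitatory and only 3 of 8 inhibitory markers. Of the microglial markers, 2 had no UMI in that class. PE-high EV library 1 contributed only 2 microglia-like and 19 astrocyte-like nuclei. PE-low EV library 2 held 468 of the 905 nuclei of the largest inhibitory cluster. Libraries shared at most 4 cell barcodes.

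Levels are given as CPM, the UMIs of a gene scaled to the total UMIs of the class in that library, as mean ± SD (n = 4 libraries). Positions are from GENCODE vM21 on GRCm38 (mm10), and each gene but *Ndst1* is given with its whole span. Of the 10 genes, 7 had their highest class mean in excitatory, inhibitory or striatal neuron-like nuclei, and the other 3 (*Ndst1*, *Ndst2* and *Hs3st1*) in oligodendrocyte-like or microglia-like nuclei. For *Hs3st1* this was the microglia-like class of 73 nuclei, at 35.0 ± 70.0 CPM per 100 kb of gene span, from 0 to 140 over the libraries. That place did not hold at a mitochondrial limit of 15%, with 1387 microglia-like nuclei. There *Hs3st1* was at 17.5 ± 4.05 CPM in microglia-like, 28.3 ± 1.79 CPM in excitatory neuron-like and 65.2 ± 18.3 CPM in oligodendrocyte-like nuclei. RNA outside nuclei was gauged from near-empty barcodes, and its level is given beside each gene. In the heat map of levels, which are not scaled to gene length, *Hs6st3* and *Hs3st4* form the bright rows and the glial columns are dark for most members.

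**Figure D1:**
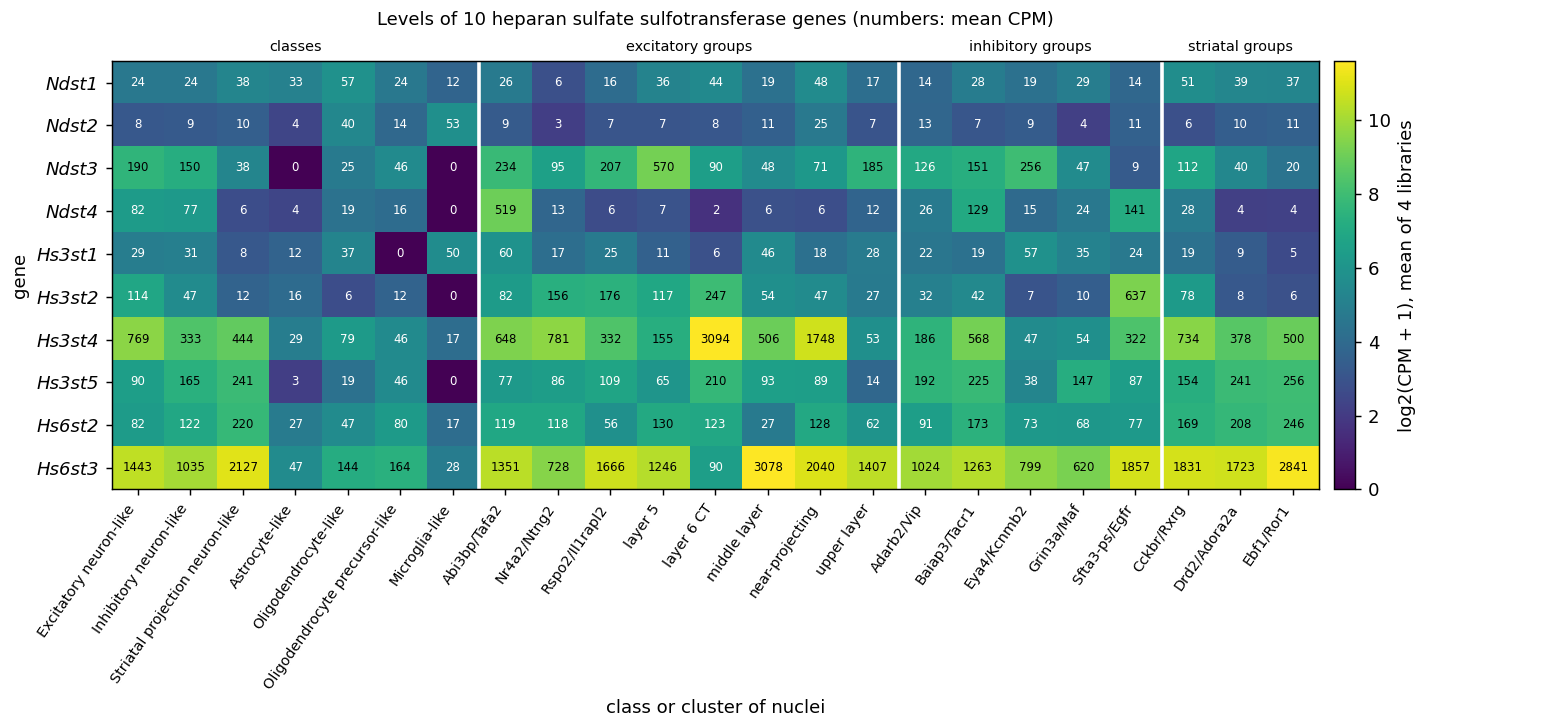
Mean level of each of the 10 genes (rows) in classes, excitatory, inhibitory and striatal clusters (columns), coloured by log2(CPM + 1) with the mean CPM of the 4 libraries printed in each cell. *Hs3st4* is brightest in the layer 6 corticothalamic-like (layer 6 CT) cluster at 3094 CPM, where *Hs6st3* is dark at 90.1 CPM, and *Ndst4* is bright in the Abi3bp/Tafa2 cluster at 519 CPM.

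Among the NDST genes, *Ndst1* encodes the broadly expressed enzyme of the family and *Ndst2* the one known for heparin synthesis in mast cells. *Ndst1* (chromosome 18) had class means of 12.4 to 56.7 CPM, and in excitatory neuron-like nuclei it was at 23.7 ± 2.21 CPM, below the 48.0 to 53.2 CPM of near-empty barcodes. Its class ranges overlapped between every pair of neighbours in the order of means. *Ndst2* (chromosome 14 from 20723730 to 20734562 on the minus strand) was at 8.11 ± 2.06 CPM in excitatory, 8.79 ± 2.22 CPM in inhibitory and 10.2 ± 2.42 CPM in striatal neuron-like nuclei, close to the 4.98 to 7.43 CPM of near-empty barcodes. It reached 40.3 ± 8.27 CPM in oligodendrocyte-like nuclei (28.3 to 47.0 CPM over the libraries), clear of all 3 of those neuron classes in every library. The microglia-like mean of 53.4 ± 40.4 CPM rests on 73 nuclei and ran from 0 to 96.0 CPM.

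*Ndst3* and *Ndst4*, whose products are the NDST enzymes restricted mainly to brain and embryonic tissue, lie 1713 kb apart on chromosome 3. *Ndst3* spans chromosome 3 from 123526166 to 123690853 on the minus strand. It was at 190.0 ± 33.4 CPM in excitatory and 150.5 ± 36.3 CPM in inhibitory neuron-like nuclei, whose ranges overlapped, and at 37.6 ± 3.54 CPM in striatal neuron-like nuclei, beside 22.3 to 38.0 CPM in near-empty barcodes. No *Ndst3* UMI was counted in 353 astrocyte-like nuclei, which allows up to 7.67 CPM, or 0.85% of these nuclei with a UMI (3 counts, counting error only), and says nothing on how many express the gene. At a mitochondrial limit of 15% astrocyte-like nuclei were at 14.4 ± 5.58 CPM.

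Within the excitatory class *Ndst3* was uneven. The layer 5-like cluster had the highest level in every library, at 520.2 and 476 CPM with PE-low EV and 662 and 621 CPM with PE-high EV. That was 2.29 to 2.81 times the level of the next cluster, led by *Abi3bp* and *Tafa2* (234 ± 27.3 CPM), and 8.49 to 32.8 times that of the middle layer-like cluster (47.7 ± 21.7 CPM). With the 15% limit and its own clusters, the middle layer-like level was 171 ± 27.5 CPM and the highest excitatory one, in a cluster led by *Tafa1* and *L3mbtl4*, 446 ± 48.1 CPM, so the contrast was smaller there. Among inhibitory clusters *Ndst3* was highest in the one led by *Eya4* and *Kcnmb2* (256 ± 72.3 CPM), 3.74 to 7.62 times the level in the one led by *Grin3a* and *Maf* (46.9 ± 13.3 CPM).

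*Ndst4* spans chromosome 3 from 125404076 to 125728899 on the plus strand. Its class levels were 72.8 and 42.9 CPM with PE-low EV and 118 and 92.7 CPM with PE-high EV for excitatory neuron-like nuclei and 66.9 and 101 CPM with PE-low EV and 54.7 and 86.1 CPM with PE-high EV for inhibitory neuron-like nuclei, so the classes overlapped, and 5.67 ± 3.79 CPM for striatal neuron-like nuclei, below the 13.6 to 24.2 CPM of near-empty barcodes. At the 3% limit the excitatory signal was concentrated in the Abi3bp/Tafa2 cluster of 589 nuclei, at 569 and 286 CPM with PE-low EV and 719 and 501 CPM with PE-high EV. The other 7 excitatory clusters had means of 2.11 to 13.2 CPM, all below the near-empty range. With the 15% limit and its own clusters, the cluster led by *Tafa2* and *Abi3bp* was at 441 ± 166 CPM. The upper layer-like cluster was at 103 ± 87.9 CPM, with a range of 19.7 to 216 CPM, and held 980 *Ndst4* UMIs against 933. In a second clustering of excitatory nuclei at that limit, described below, clusters led by *Kctd8* and *Cux2* and by *Gpc6* and *Ccbe1* were at 3.46 and 18.1 CPM. All nuclei outside its *Ndst4*-rich clusters held 58 and 34 *Ndst4* UMIs with PE-low EV and 69 and 69 with PE-high EV. Most of the 980 UMIs thus lay in nuclei of those rich clusters. With each nucleus thinned to 500 UMIs, 19.0% of Abi3bp/Tafa2 nuclei had an *Ndst4* UMI, against 0.655% of upper layer-like, 0.134% of layer 6 corticothalamic-like and 0.289% of astrocyte-like nuclei. Unthinned, the shares were 47.9%, 1.96%, 0.537% and 0.567%, at medians of 2682, 2590.0, 2198 and 1053 UMIs per nucleus.

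The inhibitory *Ndst4* signal was likewise concentrated. It was 139 and 131 CPM with PE-low EV and 119 and 127 CPM with PE-high EV in the cluster led by *Baiap3* and *Tacr1* (905 nuclei), and 141 ± 33.4 CPM in the small cluster led by *Sfta3-ps* and *Egfr* (56 nuclei). The 3 other inhibitory clusters had means of 15.3 to 25.8 CPM. In every library the Abi3bp/Tafa2 excitatory cluster exceeded the Baiap3/Tacr1 cluster, at 2.19 to 6.03 times its level.

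Of the 3-O-sulfotransferase genes, *Hs3st1* encodes the enzyme that makes antithrombin-binding sites. It (chromosome 5 from 39613935 to 39755475 on the minus strand) had means of at most 59.9 CPM in the excitatory clusters, and its excitatory class level of 29.1 ± 2.74 CPM lay within the 26.0 to 35.9 CPM of near-empty barcodes. *Hs3st2*, *Hs3st4* and *Hs3st5* encode 3-O-sulfotransferases found mainly in brain, and *Hs3st2* and *Hs3st4* lie 2481 kb apart on chromosome 7.

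*Hs3st2* (chromosome 7 from 121391859 to 121501770 on the plus strand) was at 114 ± 14.9 CPM in excitatory neuron-like nuclei, above inhibitory neuron-like nuclei (47.1 ± 12.2 CPM) in every library. The striatal class ran from 3.47 to 21.9 CPM and near-empty barcodes from 35.7 to 54.6 CPM. The highest cluster was the small Sfta3-ps/Egfr inhibitory cluster, at 575 and 892 CPM with PE-low EV and 318 and 763 CPM with PE-high EV, while the other 4 inhibitory clusters had means of 7.03 to 42.3 CPM. Among excitatory clusters it was highest in layer 6 corticothalamic-like nuclei (247 ± 38.0 CPM), above the upper layer-like level of 26.6 ± 7.62 CPM in all 4 libraries. The clusters led by *Rspo2* and *Il1rapl2* (176 ± 35.7 CPM) and by *Nr4a2* and *Ntng2* (156 ± 30.7 CPM) came next, with overlapping ranges.

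*Hs3st4* (chromosome 7 from 123982869 to 124398989 on the plus strand) showed a wide contrast between cortical layers. In layer 6 corticothalamic-like nuclei it was at 3214 and 3151 CPM with PE-low EV and 2807 and 3205 CPM with PE-high EV, and in upper layer-like nuclei at 40.5 and 39.4 CPM with PE-low EV and 53.0 and 80.4 CPM with PE-high EV. Within a library the first was 39.9 to 79.9 times the second. The near-projecting-like cluster was second (1748 ± 193 CPM), followed by the Nr4a2/Ntng2 cluster (781 ± 172 CPM) and the Abi3bp/Tafa2 cluster (648 ± 98.4 CPM), whose ranges overlapped. The upper layer-like level lay below the 112 to 136 CPM of near-empty barcodes. With 500 UMIs per nucleus, 73.2% of layer 6 corticothalamic-like nuclei and 1.31% of upper layer-like nuclei had a UMI, against 2.60% of astrocyte-like nuclei. By class *Hs3st4* was at 769 ± 65.4 CPM in excitatory, 444 ± 29.9 CPM in striatal and 333 ± 118 CPM in inhibitory neuron-like nuclei, the last with a wide spread of 216 to 491 CPM. Within the inhibitory class the Baiap3/Tacr1 cluster was at 568 ± 100.2 CPM and the Eya4/Kcnmb2 cluster at 46.9 ± 30.2 CPM, and PE-low EV library 2, which held the most Baiap3/Tacr1 nuclei, had the highest class level.

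*Hs3st5* (chromosome 10 from 36506814 to 36834397 on the plus strand) had another class order, with 241 ± 20.4 CPM in striatal, 165 ± 28.6 CPM in inhibitory and 90.1 ± 12.2 CPM in excitatory neuron-like nuclei, and no overlap between these 3 classes. Near-empty barcodes were at 17.6 to 28.8 CPM. The striatal clusters led by *Drd2* and *Adora2a* (241 ± 25.9 CPM) and by *Ebf1* and *Ror1* (256 ± 16.0 CPM) did not differ beyond their spread. As with *Hs3st4*, layer 6 corticothalamic-like nuclei had the highest excitatory mean (210.5 ± 35.4 CPM) and upper layer-like nuclei the lowest (13.5 ± 4.31 CPM), 14.1 to 21.9 times apart within a library.

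**Figure D2:**
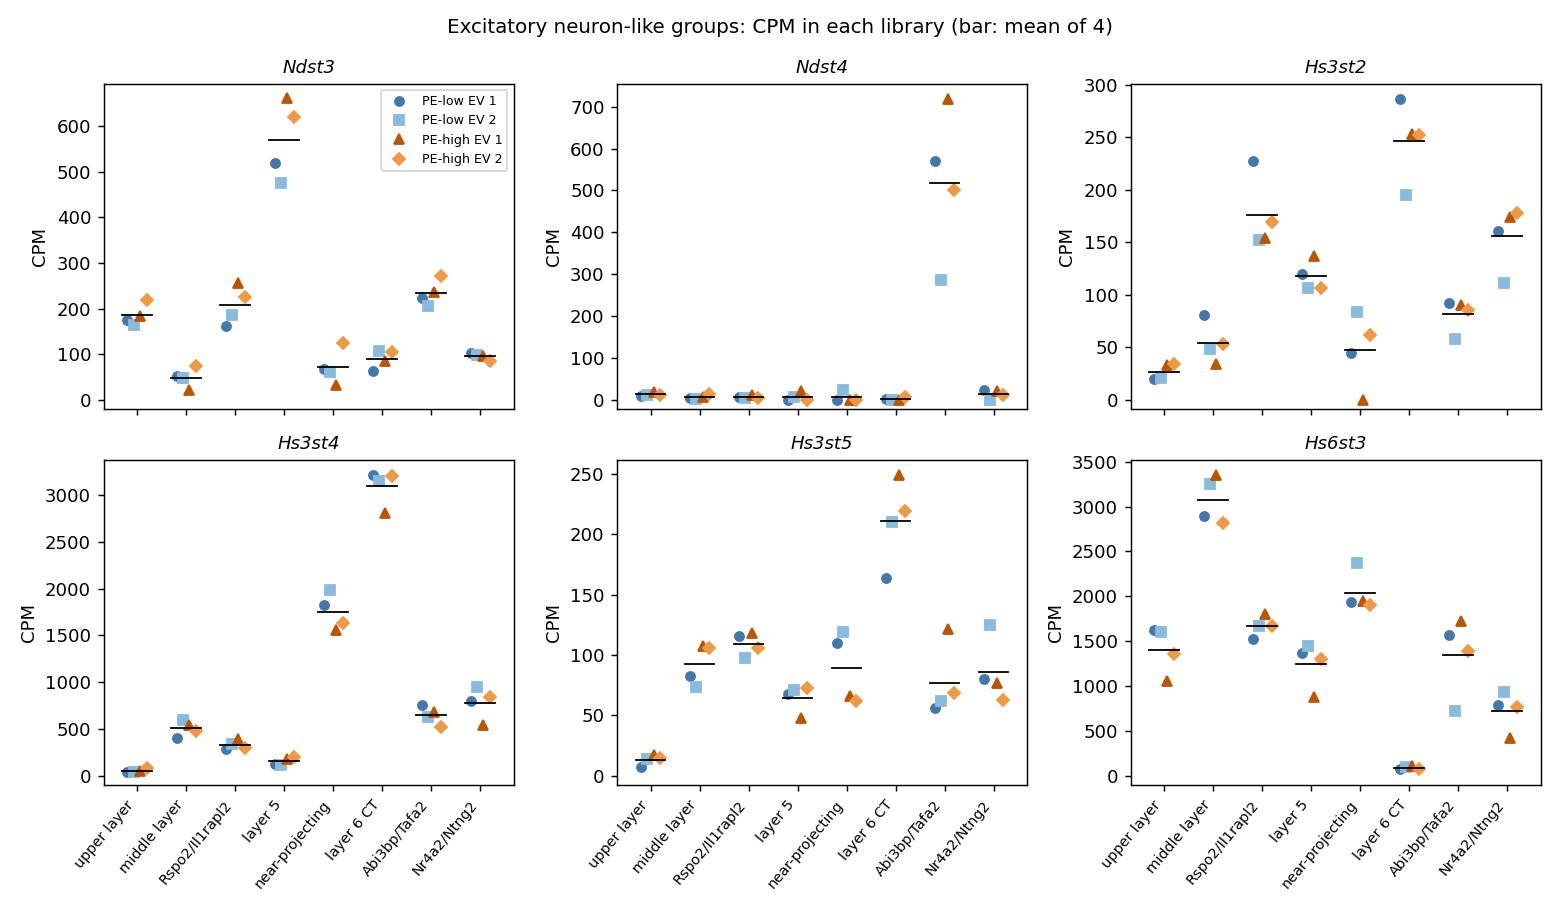
Level (CPM, linear axis from 0) of 6 of the genes in the 8 excitatory clusters, with a point for each library and a bar for the mean of the 4 libraries. The points of a cluster mostly lie close together compared with the distances between clusters, as for *Hs6st3* at 90.1 CPM in layer 6 CT and 3078 CPM in the middle layer, whereas *Ndst4* in the Abi3bp/Tafa2 cluster runs from 286 to 719 CPM.

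The 6-O-sulfotransferase genes *Hs6st2* and *Hs6st3* were both highest in the striatal class. *Hs6st2* (chromosome X from 51387212 to 51681856 on the minus strand) was at 219.7 ± 23.9 CPM in striatal, 122 ± 9.27 CPM in inhibitory and 81.6 ± 11.7 CPM in excitatory neuron-like nuclei, with no overlap between these 3 classes. The excitatory level lay at the 68.2 to 87.1 CPM of near-empty barcodes. Its lowest excitatory cluster was the middle layer-like one (26.6 ± 9.13 CPM) and its highest means were in layer 5-like (130.2 ± 29.6 CPM) and near-projecting-like nuclei (128 ± 38.0 CPM), which overlapped.

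*Hs6st3* (chromosome 14 from 119138341 to 119869815 on the plus strand) was at 2127 ± 327 CPM in striatal, 1443 ± 71.0 CPM in excitatory and 1035 ± 25.5 CPM in inhibitory neuron-like nuclei. Glial classes were at 28.4 to 164 CPM and near-empty barcodes at 141 to 209 CPM. The exception among neurons was the layer 6 corticothalamic-like cluster, at 74.4 and 95.1 CPM with PE-low EV and 111 and 80.0 CPM with PE-high EV, below the near-empty level. The middle layer-like cluster was at 2896 and 3248 CPM with PE-low EV and 3355 and 2814 CPM with PE-high EV, 30.2 to 38.9 times as high within a library, and the next lowest excitatory cluster (Nr4a2/Ntng2, 728 ± 215 CPM) was still at 3.82 to 10.6 times the layer 6 corticothalamic-like level. *Hs3st4* and *Hs6st3* thus stood at opposite ends in that cluster. In the striatum the Ebf1/Ror1 cluster exceeded the Drd2/Adora2a cluster in all 4 libraries (2841 ± 246 and 1723 ± 288 CPM).

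Counts of nuclear RNA can grow with gene length, and whether intronic reads were counted is not known here. Apart from the colours of the heat map, the genes were therefore compared with each other only per 100 kb of gene span. On that scale the mean over all nuclei was 196 ± 8.60 CPM per 100 kb for *Hs6st3*, 134 ± 5.94 for *Hs3st4*, 89.2 ± 18.7 for *Ndst2*, 81.7 ± 15.8 for *Ndst3* and 18.3 ± 4.81 for *Ndst4*. *Ndst2* is short (10.8 kb, of which 42.0% is exon) and *Hs6st3* long (731.5 kb, 0.234% exon), so the scale does not treat them alike. In the Abi3bp/Tafa2 cluster *Ndst4* reached 159.8 ± 55.5 CPM per 100 kb, overlapping *Ndst3* there at 142 ± 16.6. In the layer 5-like cluster *Ndst3* was at 346 ± 52.4 CPM per 100 kb and *Ndst4* at 2.12 ± 2.97.

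Of the family members outside the 10 genes, *Hs2st1*, the only 2-O-sulfotransferase gene, was at 165 ± 6.36 CPM in excitatory, 132 ± 10.8 CPM in striatal and 119.6 ± 3.92 CPM in inhibitory neuron-like nuclei and at 139.8 ± 57.6 CPM in astrocyte-like nuclei. *Hs6st1* was at 18.1 ± 3.09 CPM in excitatory and 26.0 ± 23.6 CPM in oligodendrocyte-like nuclei. *Hs3st3a1* had 21 UMIs in all excitatory neuron-like nuclei and was at 16.6 ± 12.8 CPM in astrocyte-like nuclei. *Hs3st3b1* had 23 UMIs and *Hs3st6* 1 UMI in all kept nuclei.

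Patterns over clusters were compared for *Ndst4*, *Ndst3*, *Hs3st2* and *Hs3st4* with those of 10497 genes, as Pearson correlations of log2(CPM + 1) over the 17 named clusters with at least 100 nuclei. The clusters come from the same 4 libraries and their depths differ, so these are descriptions. For *Ndst4* the closest genes were *Ubn2* (r = 0.716), *Phactr2* (0.713), *Camk2d* (0.665), *Zfp536* (0.664) and *Shisal1* (0.651), a weaker likeness than for the other 3. *Ndst3* was closest to *Fam57b* (0.914), *Ppfia2* (0.903), *Atp8a2* (0.892), *Plxna4os3* (0.870) and *Myo9b* (0.868). *Hs3st2* was closest to *Ipcef1* (0.914), *Prss12* (0.896), *Khdrbs3* (0.871), *R3hdm2* (0.861) and *Gm17167* (0.858). *Hs3st4* was closest to *Atp10a* (0.794), *Nrg1* (0.783), *Rap1gds1* (0.769), *Caln1* (0.767) and *Cwh43* (0.764). Among the 10 genes themselves, *Hs3st5* and *Hs6st2* had the highest correlation (0.795), then *Hs3st4* and *Hs3st5* (0.726), and *Ndst2* and *Hs3st2* the lowest (-0.630). *Ndst3* and *Ndst4* had 0.185.

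Whether the EV groups differed was asked in each class from UMIs summed per library, with edgeR over all genes tested. In excitatory neuron-like nuclei 0 of 10 members passed an adjusted p of 0.1, as did 0 of all 13086 genes tested (0%), with 655 genes at an unadjusted p under 0.05 and 0 called by DESeq2. For *Ndst4*, whose treatment difference chose the members, this count is not read as a test outcome. With 2 libraries in a group, p-values measure only the spread between these libraries. *Ndst4* was the member with the largest difference, at 72.8 and 42.9 CPM with PE-low EV and 118 and 92.7 CPM with PE-high EV. The groups did not overlap, and the log2 fold change (PE-high minus PE-low EV) was 0.88 ± 0.18 (SE). *Ndst3* was at 166 and 157 CPM with PE-low EV and 215 and 222 CPM with PE-high EV, also without overlap, a log2 fold change of 0.47 ± 0.11 (edgeR adjusted p = 0.347). The layer 5-like cluster, with the highest *Ndst3* level, held 5.85 and 3.43% of excitatory nuclei with PE-low EV and 7.42 and 6.36% with PE-high EV. How much cluster shares and levels within clusters each add to this class difference was not tested.

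*Hs6st2* was at 77.2 and 67.1 CPM with PE-low EV and 91.1 and 91.0 CPM with PE-high EV, a log2 fold change of 0.37 ± 0.13 (edgeR adjusted p = 0.735). *Hs3st5* was at 76.6 and 87.2 CPM with PE-low EV and 106 and 90.7 CPM with PE-high EV, a log2 fold change of 0.28 ± 0.14 (edgeR adjusted p = 0.999) that was 0.16 without PE-low EV library 1, 0.16 without PE-high EV library 1 and 0.41 without PE-high EV library 2. Neither passed the test, although the groups did not overlap for either gene. The other 6 members lay between -0.18 and 0.26 on the log2 scale. In all, 5 of 10 members had both PE-high EV libraries above both PE-low EV libraries (*Ndst3*, *Ndst4*, *Hs3st1*, *Hs3st5* and *Hs6st2*), where 13.6% of all tested genes did, and 2 of 10 lay below (*Hs6st3* and *Ndst1*), where 19% did. The median log2 fold change of the 10 members was 0.26, and that of all genes tested 0.00. These counts and this median include *Ndst4*, whose treatment difference chose the members, so none is read as a shift of the family.

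The *Ndst4* log2 fold change was 1.27 without PE-low EV library 1, 0.55 without PE-low EV library 2, 0.70 without PE-high EV library 1 and 1.08 without PE-high EV library 2. With no upper limit on genes per nucleus it was 0.58 ± 0.14. *Ndst3* stayed between 0.45 and 0.49 with 1 library left out. With a mitochondrial limit of 15%, which keeps 37504 nuclei, *Ndst4* had a log2 fold change of 1.38 ± 0.22, and 3 of all 14497 genes tested were called (0.0207%), from which nothing is read about the gene that chose the members.

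**Figure D3:**
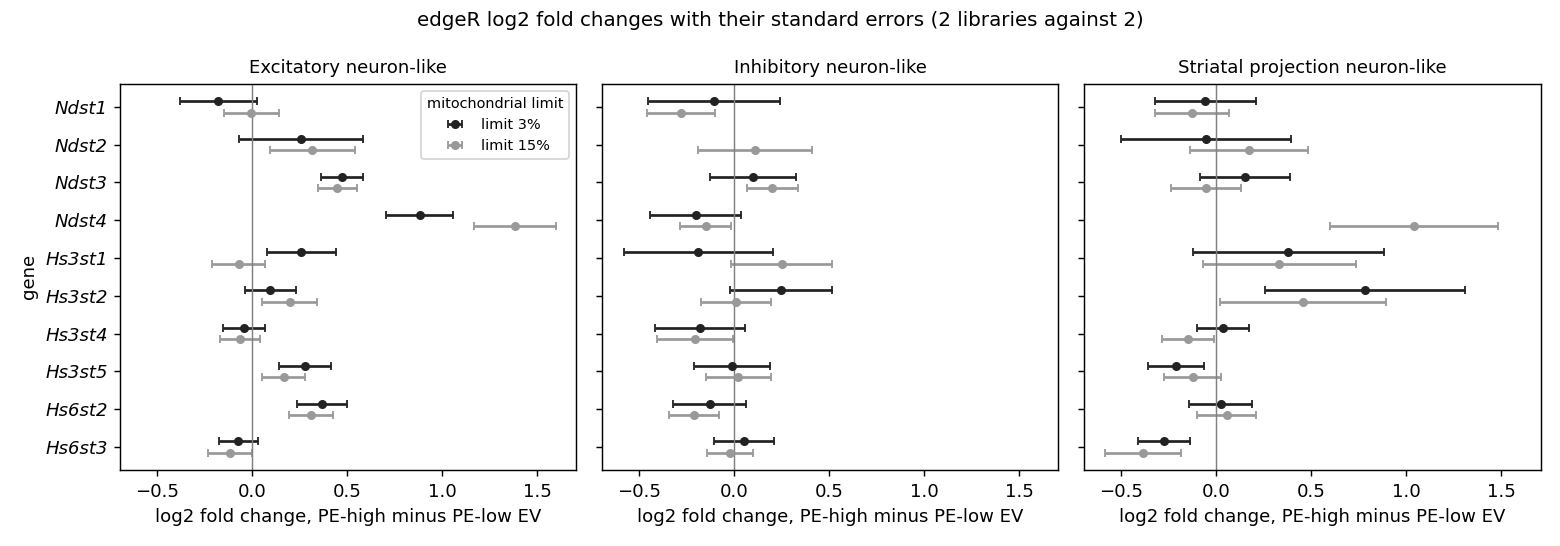
Log2 fold change (PE-high minus PE-low EV) with its standard error from edgeR for each gene tested, in 3 neuron classes, under the mitochondrial limit of 3% (black) and of 15% (grey). *Ndst4* and *Ndst3* in excitatory neuron-like nuclei stand farthest to the right of 0 in relation to their errors, at 0.88 and 0.47 under the 3% limit, and in inhibitory neuron-like nuclei the values lie between -0.20 and 0.24 under that limit.

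Because *Ndst4* was concentrated in few nuclei, its excitatory level was divided into the share of such nuclei and the level within them. Excitatory neuron-like nuclei were clustered again without the 10 genes, and the clusters with at least 200 CPM of *Ndst4* over all libraries were set apart. These were 2 clusters, led by *Zfp536* and *Adarb2* (232 nuclei, 830.5 CPM) and by *Unc13c* and *Cntnap5c* (284 nuclei, 336 CPM), and the highest cluster outside was at 76.7 CPM. They held 516 of 4449 nuclei (11.6%) and 92.9% of the *Ndst4* UMIs. Since their own *Ndst4* level chose them, no test was made.

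Both quantities varied between libraries. The share of excitatory nuclei was 8.53 and 10.6% with PE-low EV and 11.6 and 14.7% with PE-high EV, and the groups did not overlap. Shares of the earlier excitatory clusters mostly did not overlap either. Those of the Abi3bp/Tafa2, Rspo2/Il1rapl2 and Nr4a2/Ntng2 clusters and the cluster highest in *Ndst3* were higher with PE-high EV. Those of the upper and middle layer-like clusters were lower. The corticothalamic-like and near-projecting-like shares overlapped. At the 15% limit the Tafa2/Abi3bp share overlapped, at 6.58 and 10.8% with PE-low EV and 6.67 and 8.83% with PE-high EV. The *Ndst4* level in the *Ndst4*-rich nuclei was 705 and 347 CPM with PE-low EV and 888 and 535 CPM with PE-high EV, and the groups overlapped. In all other excitatory nuclei it was 7.65 and 2.93 CPM with PE-low EV and 6.82 and 7.75 CPM with PE-high EV. At the 15% limit the level in all other excitatory nuclei was 8.55 and 6.59 CPM with PE-low EV. With PE-high EV it was 12.8 and 12.6 CPM there, so the groups did not overlap, though all 4 values lay below the near-empty range. Near-empty barcodes did not overlap either, at 13.6 and 16.7 CPM with PE-low EV and 24.2 and 18.8 CPM with PE-high EV. With the 15% limit 2 *Ndst4*-rich clusters held 1037 nuclei and 89.0% of the *Ndst4* UMIs, and the highest cluster outside was at 111 CPM. The shares were 6.72 and 9.16% with PE-low EV and 11.5 and 11.4% with PE-high EV and the levels 664 and 288 CPM with PE-low EV and 1045 and 662 CPM with PE-high EV, the upper PE-low EV library lying just above the lower PE-high EV library. PE-low EV library 2 had the lowest level and PE-high EV library 1 the highest under both limits. How much of the class difference each of these quantities accounts for was not tested.

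**Figure D4:**
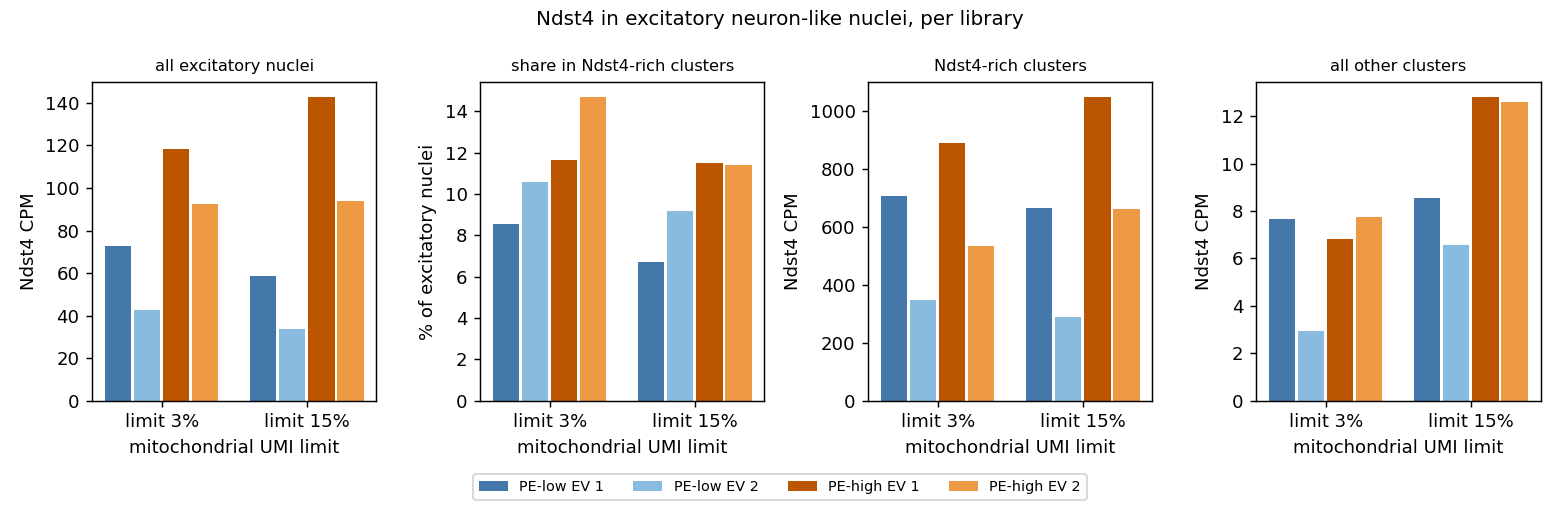
*Ndst4* in excitatory neuron-like nuclei under mitochondrial limits of 3% and 15%, with a bar for each library, showing from left to right the level in all excitatory nuclei (CPM), the share in the *Ndst4*-rich clusters (%), the level in those clusters (CPM) and the level in all other clusters (CPM). PE-high EV bars are higher than both PE-low EV bars in the first 2 panels, while in the third PE-low EV library 1 (704.6 CPM at 3%) exceeds PE-high EV library 2 (535 CPM).

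The *Ndst4*-rich nuclei also differed from the other excitatory nuclei in members that did not choose them, over the same libraries. *Ndst3* ran from 231 to 296 CPM in them and from 147 to 208 CPM in the rest, and *Hs6st2* from 107 to 174 against 61.9 to 84.1 CPM, neither overlapping. *Hs3st1* was higher (42.2 to 71.1 against 21.4 to 28.6 CPM). *Hs3st2* was lower (49.6 to 83.4 against 99.7 to 135 CPM), as were *Hs3st4* (429 to 596 against 726 to 904 CPM) and *Hs3st5* (55.6 to 65.9 against 78.7 to 112 CPM). *Hs6st3* overlapped, at 734 to 1647 and 1339 to 1554 CPM. The rest is a mixture of unlike clusters. By mean *Hs3st4*, the Abi3bp/Tafa2 cluster (156 CPM per 100 kb) lay far below layer 6 corticothalamic-like nuclei (744). It lay above the upper layer-like (12.8), layer 5-like (37.3), Rspo2/Il1rapl2 (79.9) and middle layer-like clusters (122). For *Ndst3* the layer 5-like cluster was higher (346 against 142), and for *Hs6st2* these 2 clusters overlapped. The near-projecting-like (43.4) and layer 6 corticothalamic-like (41.8) *Hs6st2* means also exceeded that of the Abi3bp/Tafa2 cluster (40.3). Its *Hs3st2* mean (74.2) lay above the upper layer-like (24.2), near-projecting-like (43.1) and middle layer-like means (49.1) and below the others. Its *Hs3st5* mean (23.5) lay above the upper layer-like (4.13) and layer 5-like means (19.8) and below the others. These are descriptions of clusters and carry no test.

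In inhibitory neuron-like nuclei 0 of 9 members tested passed edgeR's adjusted p of 0.1, as did 0 of 9177 genes (0%), with 315 at an unadjusted p under 0.05 and 0 called by DESeq2. Their log2 fold changes were -0.20 to 0.24, with standard errors of 0.16 to 0.39. For *Ndst4* it was -0.20 ± 0.24. None of the 9 lay above without overlap (background 14.3%) and 2 lay below (*Ndst1* and *Hs6st2*, background 17.3%). In striatal neuron-like nuclei 0 of 9 members tested and 0 of 10599 genes (0%) passed edgeR's test, with 460 at an unadjusted p under 0.05 and 0 called by DESeq2. Log2 fold changes were -0.28 to 0.78, the highest that of *Hs3st2* (0.78 ± 0.53), and *Ndst3* lay above without overlap (background 18.2%) and *Hs3st5* below (15.2%). In near-empty barcodes *Ndst3* was also higher without overlap, at 22.3 and 30.2 CPM with PE-low EV and 37.3 and 38.0 CPM with PE-high EV. Without PE-low EV library 1, *Hs6st3* had a log2 fold change of -0.47 in striatal neuron-like nuclei, against -0.28 with all libraries. *Ndst4*, too low to be tested there at the 3% limit, had 1.04 ± 0.44 at the 15% limit. Its near-empty level was likewise higher with PE-high EV, as given above. What RNA outside nuclei adds to these differences was not tested.

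In oligodendrocyte-like nuclei only *Hs6st3* was counted often enough to be tested, with a log2 fold change of -0.31 ± 0.90, and 0 of 1834 genes called by edgeR (0%), 60 at an unadjusted p under 0.05 and 0 by DESeq2. At the 15% limit 9 members were tested there and 0 passed edgeR's test, as did 0 of 9103 genes (0%), with 480 at an unadjusted p under 0.05 and 0 called by DESeq2. Log2 fold changes were -0.71 to 0.66, with -0.71 ± 0.27 for *Ndst1* and 0.66 ± 0.24 for *Hs3st4* (edgeR adjusted p = 0.923 for both). Astrocyte-like, precursor-like and microglia-like nuclei were too few at the 3% limit, the smallest library having 19, 17 and 2 nuclei, and were fitted at the 15% limit instead. There 0 of 6, 0 of 4 and 0 of 4 members tested passed edgeR's test, with log2 fold changes of -0.26 to 0.43, -0.02 to 0.42 and 0.09 to 0.42. Of all genes, 0 of 8916 in astrocyte-like (0%), 0 of 4878 in precursor-like (0%) and 1 of 5138 in microglia-like nuclei (0.0195%) passed, with 410, 223 and 254 at an unadjusted p under 0.05.

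Differences of the treatment effect between neuron classes were tested as an interaction with edgeR. *Ndst4* is left out of the calls here, since its treatment difference chose the members. With it left out, no member passed for any of the 3 pairs of classes, where 1 of 12721 genes (0.00786%) passed between excitatory and inhibitory, 56 of 11984 (0.467%) between excitatory and striatal and 5 of 11015 (0.0454%) between inhibitory and striatal neuron-like nuclei. The *Ndst4* effect was 1.11 ± 0.28 higher on the log2 scale in excitatory than in inhibitory neuron-like nuclei. That of *Hs6st2* was 0.51 ± 0.21 higher (adjusted p = 1.00, edgeR), and that of *Hs3st5* was 0.49 ± 0.16 higher in excitatory than in striatal neuron-like nuclei (adjusted p = 0.305, edgeR). For *Hs6st2* that difference was 0.35 ± 0.17 (adjusted p = 0.762, edgeR). For *Ndst4* inhibitory minus striatal was -1.72 ± 0.57. At the 15% limit the *Ndst4* difference between excitatory and inhibitory neuron-like nuclei was 1.55 ± 0.21, where 10 of 15271 genes passed (0.0655%). At that limit, again with *Ndst4* left out, no member passed between excitatory and striatal (12 of 14524 genes, 0.0826%) or between inhibitory and striatal neuron-like nuclei (0 of 13330 genes, 0%, with 565 at an unadjusted p under 0.05). DESeq2 was not run on these differences.

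The rest of the pathway was followed through 47 listed genes for chain synthesis, sulfate and sugar supply, other modifying enzymes, extracellular sulfatases, breakdown and core proteins. In excitatory, inhibitory, striatal and oligodendrocyte-like nuclei 37, 27, 29 and 4 of them were tested, and 0 passed in either direction by edgeR or by DESeq2. Their median log2 fold changes were -0.04, -0.05, -0.02 and 0.35. Levels of 3 of them, chosen after their values were seen, differed between classes. The chain polymerase gene *Ext1* was at 794 ± 57.5 CPM in excitatory and 268 ± 12.8 CPM in striatal neuron-like nuclei. The glypican gene *Gpc5*, a core protein, was at 10259.8 ± 761 CPM in astrocyte-like and 82.7 ± 6.01 CPM in excitatory neuron-like nuclei. *Sulf2*, whose product removes 6-O-sulfates outside the cell, was at 212 ± 56.2 CPM in precursor-like and 6.67 ± 2.73 CPM in striatal neuron-like nuclei, the class with the highest *Hs6st2* and *Hs6st3* means.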

How the data were processed

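The authors deposited, for each of 4 single-nucleus libraries (10x 3' chemistry), unfiltered UMI counts made with Cell Ranger 7.1.0 on mm10. Whether intronic reads were counted was not given in the sources used here. The matrices held 5697817 barcodes. Most nuclei were called by a UMI cutoff set for each library, at 573 and 839 with PE-low EV and 405 and 422 with PE-high EV. A comparison with near-empty barcodes (500 UMIs or more, false discovery rate 0.01, 10000 simulations) could only add to these. It added 363 and 948 nuclei with PE-low EV. With PE-high EV both cutoffs lay below 500 UMIs, so no barcode was left to compare and the 0 and 0 added there were fixed in advance. The cutoffs thus differed between the groups, and what this does to the results was not tested. In all, 45479 nuclei were called. Limits of 200 to 2500 genes and at most 3% mitochondrial UMIs, those in the study's methods, left 10688. The study states far more cells than this, a number near the 37504 that a 15% limit keeps. No doublet caller was run, so the limit on genes was the only guard against doublets.

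Nuclei were clustered with scanpy 1.11.5 (2000 variable genes without the 10 members, 30 components, 20 neighbours, Leiden resolution 0.8), giving 36 clusters. Clusters were named from fixed marker genes, with thresholds written and revised after the clusters were seen, and clusters without a type name are called by leading genes. UMIs were summed per library and class and tested with edgeR 4.0.16 (quasi-likelihood, TMM, R 4.3.3) at a Benjamini-Hochberg adjusted p of 0.1. DESeq2 1.42.0, other filters, clusterings and limits, a replicate block and each library left out were alternatives. Settings combined with the 15% limit and the second excitatory clustering were chosen after seeing the data. Classes with under 20 nuclei in any library were not fitted. The procedure was tested on simulated data.

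Members and gene lists were chosen with earlier results of these data known. All 10 members are named, the other family members by level, the 47 other heparan sulfate genes by counts, and the 5 genes most like each of *Ndst4*, *Ndst3*, *Hs3st2* and *Hs3st4* by correlation (at least 200 UMIs in all, pseudocount 1). In the fits at the 3% limit, and within striatal and oligodendrocyte-like nuclei at the 15% limit, fold changes above 2 standard errors are given by name, a rule set after values were seen. Replicate numbers are shared by the groups but nothing ties same-numbered libraries together. Floors of 3 counts cover counting error only.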

Additional observations from a re-analysis of the deposited data

How the results depend on the processing

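Fold changes above 2 standard errors kept their direction under the alternatives run, while of the other members tested 4 of 6 in excitatory, 7 of 9 in inhibitory and 5 of 9 in striatal neuron-like nuclei changed sign under at least 1. *Ndst4* is left out of the calls given here, since its treatment difference chose the members. In excitatory neuron-like nuclei 0 members passed the edgeR threshold as reported. With the replicate block at the 3% limit *Ndst3* passed, where 33 of 13086 genes were called. With 1 library left out, calls of members are not given, since a group then holds a lone library. In striatal neuron-like nuclei *Hs6st3* passed with the replicate block at the 15% limit, where 188 of 12000 genes were called. Between neuron classes *Ndst4* is described only by its differences given above. The cause of these changes was not tested, and a fit without 1 library leaves a lone library assumed to vary like the others. Genes called in excitatory neuron-like nuclei numbered 0 as reported, 33 with the block and 6 to 225 with 1 library left out. The replicate numbers share no stated litter or day, and deviations of same-numbered libraries correlated at 0.0149, 0.0831 and 0.00398 in the 3 neuron classes at the 3% limit and at 0.10005 to 0.181 at the 15% limit, where the block called 197, 192 and 188 genes against 3, 0 and 0 without it. Of the 47 pathway genes, *Gpc5* was called lower in inhibitory neuron-like nuclei with the block. At the 15% limit with the block, *Gpc4* was called higher in excitatory and *Sdc3* lower in inhibitory neuron-like nuclei. With the 15% limit 23 of 70 levels moved by more than 1 SD, and with another clustering or no upper gene limit 1 of 80 each. In the upper layer-like cluster *Ndst4* went to 103 CPM, *Hs3st2* to 65.4, *Hs3st4* to 96.4 and *Hs3st5* to 33.0 CPM at the 15% limit. That cluster then included nuclei of the *Ndst4*-rich clusters. In the middle layer-like cluster *Ndst3* went to 171 and *Hs3st2* to 116 CPM. At this depth glial levels rest on few nuclei.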
